A study of Mus musculus with 6 samples.

Results

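The genes described here encode the enzymes that burn fatty acids inside mitochondria, together with the proteins that bring the fatty acids in and that pass on the electrons. The set was defined by name: 32 mouse gene symbols, each matched to the array through the RefSeq accession of its probes. All 32 had at least 1 probe and all 32 were well above background on all 6 arrays, among 20014 genes and unnamed features tested, of which 13186 had a symbol. Hearts were taken from C57/B6 mice aged 8 weeks, and the RNA of each heart, labelled with Cy3, was read on 1 Agilent array. Every mouse carried floxed alleles of PHD2 and PHD3, prolyl hydroxylases that sense oxygen and send the hypoxia-inducible factors (HIF) to be degraded. The genotype of the 3 control hearts is given as PHD2/3f/f; Cre-/-, and that of the 3 hearts with Cre as PHD2/3f/f; Cre+/-, here called the KO-labelled hearts. Which promoter drives Cre, whether it was induced, which exons were removed and which sex was used are not stated in the labels. They call the replicates biological, and no mouse is said to be pooled. The title of the series puts the question as how the hydroxylases control phospholamban through thyroid hormone receptor alpha in the heart.

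A long-chain fatty acid reaches the matrix of the mitochondrion as a carnitine ester: the outer membrane enzyme CPT1 makes the ester, a carrier takes it through the inner membrane, and CPT2 turns it back into an acyl-CoA. Malonyl-CoA, made by acetyl-CoA carboxylase, blocks CPT1 and so sets the rate of entry. In the matrix each turn of beta-oxidation runs through an acyl-CoA dehydrogenase, a hydratase, a second dehydrogenase and a thiolase, and releases acetyl-CoA, while electron transfer flavoprotein hands the electrons of the first step to the respiratory chain. The adult heart draws most of its energy from this pathway, and its genes are known targets of the nuclear receptors PPAR alpha and ERR alpha with their coactivator PGC-1 alpha.

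The KO-labelled hearts had lower signal for nearly the whole pathway. Of the 32 genes, 30 fell, 0 rose and 2 did not pass, which were Cpt1a, the liver form of CPT1, and Echdc1, an enzyme that removes faulty acyl-CoA by-products. Here and below, "fell" and "rose" mean an adjusted p of at most 0.05 from limma, with the Benjamini-Hochberg adjustment taken over all 20014 genes and features. The shift was part of a broad one: 39.1% of everything tested passed, and 23% passed in the downward direction. The median log2 difference of the 32 genes was -1.57 (2.98-fold lower), beside -0.11 over all genes and features. At least 2-fold falls were found for 27 of the 32 genes, against 8.42% of all tested, and at least 3-fold falls for 16, against 2.61%. For 30 genes every KO-labelled heart lay below every control heart, a pattern that 33.2% of everything tested showed (55.9% did not overlap in either direction). These shares describe the list beside all genes, since the genes were named with results of these data already known.

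With all genes divided by mean signal into 4 equal bins, the probes of 24 of the 32 genes lay in the brightest bin, where 29.7% were called lower and the median log2 difference was -0.16. In the other bins, from the dimmest up, 20.7%, 19.8% and 21.7% were called lower.

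**Figure D1:**
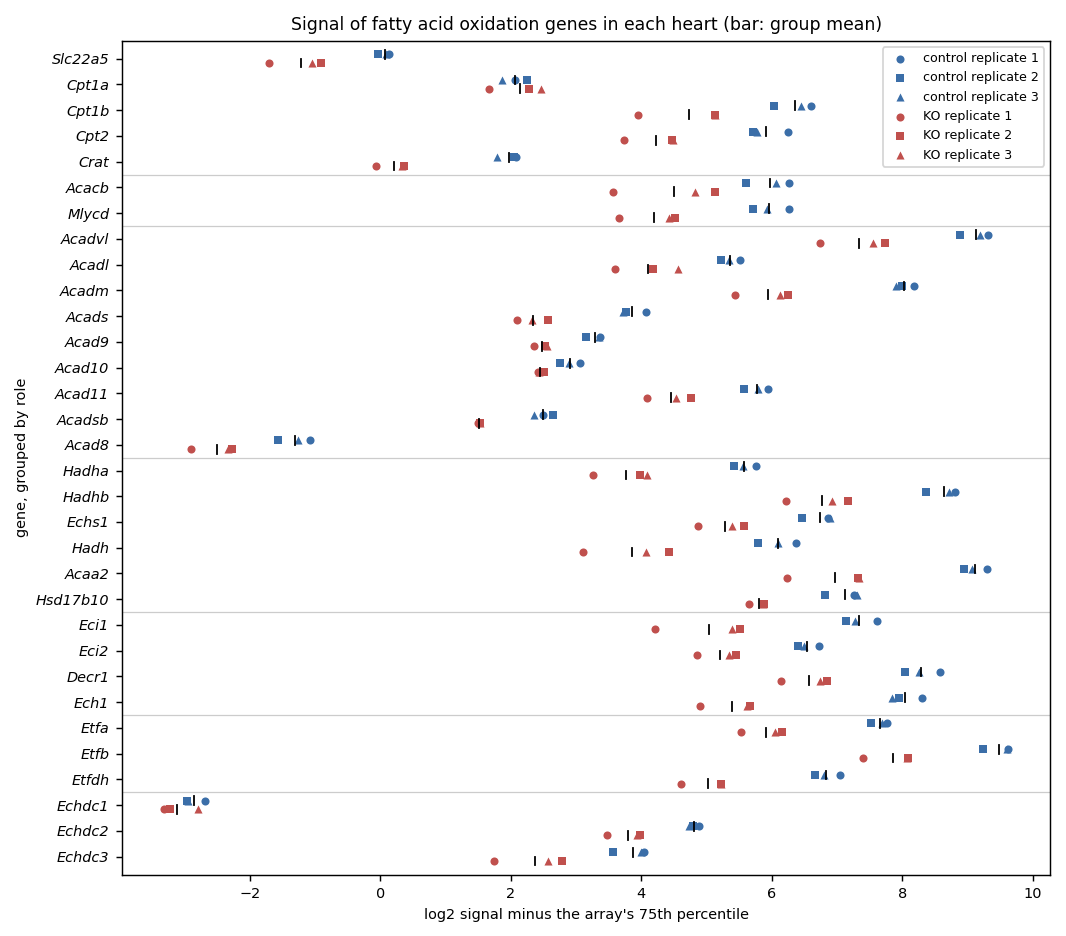
Log2 signal minus the array's 75th percentile (x axis) of the 32 genes (y axis, grouped by role) in 3 control hearts (blue) and 3 KO-labelled hearts (red), with the marker shape giving the replicate number and the black bar the group mean. For 30 genes the red points lie wholly to the left of the blue points, and levels of different genes cannot be compared because each has its own probe.

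Some features of the whole data set bear on these values. The gene of PHD2, Egln1, fell (log2 difference -1.23 ± 0.21 SE, adjusted p = 0.00652), and lost the call with the arrays set level on cardiomyocyte markers (-0.56, adjusted p = 0.0864). The gene of PHD3, Egln3, rose against its label (1.98 ± 0.17 SE, adjusted p = 0.00165), and it is not known whether its probe lies in the part that was removed. All 6 arrays lay on 1 slide with the groups in different columns of positions, so position and group cannot be told apart. Between 25761 and 28339 probes per array (46.3% to 51.0%) were well above background and 0 were saturated. Signals correlated across genes at 0.983 to 0.993 between control hearts, at 0.977 to 0.987 between KO-labelled hearts and at 0.921 to 0.970 between the groups, where genes are not independent replicates. The number of genes called depended on single hearts: it was 7817 in all, 3987 without control replicate 1, 4123 without control replicate 3 and 5142 without KO replicate 3, while 27, 28 and 28 of the 32 genes were still called lower. One heart stood apart for these genes: KO replicate 1 was the lowest KO-labelled heart for all 32. It was the lowest for 40.4% of everything tested and for 66.2% of what was called lower. Without it 29 of the 32 genes were called lower with a median log2 difference of -1.33, beside 17.3% of everything tested.

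Markers of the cells that a heart holds moved with the group. Of 10 cardiomyocyte markers 0 rose and 8 fell (median log2 difference -0.70), with none at background, and their summed signal relative to the 75th percentile was 9595 to 13153 in control and 6467 to 7967 in KO-labelled hearts. The 10 were Myh6, Tnnt2, Tnni3, Actc1, Myl2, Myl3, Mybpc3, Ryr2, Pln and Ttn. Their log2 differences ran from -0.22 (Mybpc3) to -1.92 (Pln). Pln is the gene of phospholamban, which the title of the series names. Of 9 fibroblast markers 6 rose (summed signal 413 to 762 against 1046 to 1178), as did 5 of 7 measured macrophage markers (74.4 to 119 against 143 to 236). The fibroblast markers that rose were Postn (log2 difference 4.63), Col1a1 (2.64), Col3a1 (2.16), Col1a2 (2.02), Tcf21 (0.99) and Lum (0.89). Pdgfra (0.33), Ddr2 (0.08) and Dcn (-0.23) did not pass. None of the 8 endothelial markers passed (230 to 251 against 218 to 278). Among 7 markers of smooth muscle and pericytes 3 rose and 2 fell (145 to 156 against 171 to 277). In a whole heart, fewer cardiomyocytes and less RNA per cardiomyocyte cannot be told apart. With the arrays set level on the 10 cardiomyocyte markers, a scaling chosen after seeing the data, 5.0% of everything tested was called lower. Of the 32 genes 25 were still called lower there, with a median log2 difference of -0.90, and Cpt1a was called higher. The 5 that lost the call were Acacb, Acad9, Acadsb, Echdc2 and Acad10, the last with its sign turned. That scaling raised the median of all genes by 0.67 and turned 90.4% of all calls upward, so differences in the sections below are relative to the 75th percentile unless stated otherwise.

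Other tissues that burn fatty acids or could be attached to a heart were measured by the same kind of list. Brown fat markers gave 1 rise and 3 falls among 5 tested genes (summed signal 1890 to 3039 in control and 500.2 to 993 in KO-labelled hearts). The 3 that fell were the cytochrome oxidase subunits Cox7a1 and Cox8b and the coactivator Ppargc1a, which striated muscle also expresses, and Elovl3 was above background on no array. Dio2 rose (log2 difference 3.38, adjusted p = 0.00316), and Cidea did not pass (0.51, adjusted p = 0.0812). Ucp1 was not among the tested genes. Cox7a1 and Cox8b had the brightest probes of the 5. White fat markers gave 0 calls among 5 and were uneven between hearts. Their summed signals were 3.70, 17.8 and 96.5 for the controls and 3.24, 257 and 6.91 for the hearts with Cre, and Lep was above background on no array. Of 4 skeletal muscle markers tested 3 rose and 1 fell, while Mylpf, Myh1, Myh2 and Myh4 were above background on no array (summed signal 168 to 261 against 301 to 409). Those that rose were Acta1 (log2 difference 2.24), Tnnt3 (5.65) and Tnni2 (1.44), and Ckm fell (-2.01). Acta1 and Ckm had the brightest probes of the 4, and whether these signals came from skeletal muscle was not tested. Lymphocyte markers gave 1 rise among 4 tested of 8 listed (4.47 to 6.42 against 5.22 to 18.8). Erythroid markers gave 1 fall among 6 (2448 to 3784 against 2046 to 2548). The part of any of these in the results below was not tested, apart from the scaling on cardiomyocyte markers.

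The stretches of DNA before the start sites are shown for 4 genes, because the genes moved together and share known regulators. RefSeq (GRCm38.p6) gave a window of 250 bases before to 50 bases after the start for 27 of the 32 genes (28 windows), all but Cpt1b, Decr1, Crat, Acaa2 and Acad9. Hadhb is shown because its window is shared: Hadha and Hadhb, the subunits of 1 enzyme, start 272 bases apart on opposite strands, and 228 bases (in capitals) belong to the windows of both. Acadm, Acadvl and Cpt1a are shown because each holds AGGTCA, the half-site that nuclear receptors such as PPAR alpha and ERR alpha can bind. Capitals in these 3 mark AGGTCA on either strand and, in Acadvl, also ACGTG, the core of the element that HIF binds. GCGTG, another form of that core, is left unmarked, though the windows of Hadhb, Acadm and Acadvl hold it on 1 strand or the other.
Hadhb (chr5:30155003-30155252, plus strand): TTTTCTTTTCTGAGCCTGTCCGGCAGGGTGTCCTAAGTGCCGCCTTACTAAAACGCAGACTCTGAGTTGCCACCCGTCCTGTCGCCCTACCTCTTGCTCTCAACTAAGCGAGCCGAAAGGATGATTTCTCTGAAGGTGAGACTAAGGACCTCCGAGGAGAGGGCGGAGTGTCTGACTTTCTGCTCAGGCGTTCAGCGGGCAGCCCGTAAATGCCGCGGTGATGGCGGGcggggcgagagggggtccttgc
Acadm (chr3:153944644-153944893, minus strand): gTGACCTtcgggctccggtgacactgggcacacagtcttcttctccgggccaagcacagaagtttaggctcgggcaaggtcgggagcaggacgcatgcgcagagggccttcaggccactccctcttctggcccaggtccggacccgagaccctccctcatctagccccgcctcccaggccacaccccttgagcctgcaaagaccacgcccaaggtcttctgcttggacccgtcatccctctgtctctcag
Acadvl (chr11:70015429-70015678, minus strand): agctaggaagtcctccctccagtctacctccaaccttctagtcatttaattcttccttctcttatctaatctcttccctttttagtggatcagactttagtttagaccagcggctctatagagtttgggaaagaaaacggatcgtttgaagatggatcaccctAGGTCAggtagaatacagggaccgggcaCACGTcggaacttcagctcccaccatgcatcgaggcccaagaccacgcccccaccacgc
Cpt1a (chr19:3323051-3323300, plus strand): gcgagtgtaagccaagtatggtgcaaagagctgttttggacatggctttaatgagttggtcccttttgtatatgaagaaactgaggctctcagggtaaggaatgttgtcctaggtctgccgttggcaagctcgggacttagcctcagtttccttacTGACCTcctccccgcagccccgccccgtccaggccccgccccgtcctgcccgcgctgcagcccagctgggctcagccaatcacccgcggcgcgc
Of these genes Hadhb, Acadm and Acadvl fell. Cpt1a did not pass by its brighter probe, while its other probe lay lower (log2 difference -0.96, adjusted p = 0.0272 with every probe above background tested on its own). Whether the half-site has a part in any of these values was not tested.

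Motifs were counted on both strands in the 300-base windows. AGGTCA stood in 6 of the 28 member windows (21.4%), those of Cpt1a, Acacb, Acadvl, Acadm, Echs1 and Echdc3, and in 16.3% of all 32851 windows. The repeats AGGTCANAGGTCA and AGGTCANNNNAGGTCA and the ERR element TCAAGGTCA, all of which contain AGGTCA, were in 0 member windows and in 0.0396%, 0.0152% and 0.423% of all windows. ACGTG was in 3 member windows (10.7%; Acacb, Acadvl and Echdc2), against 19.6% of all. GCGTG, the other form of the HIF core, was in 19 member windows (67.9%), against 32.4% of all. The median GC content of the member windows was 60.5%, against 52.7% of all windows. A match of letters is a description and not a site, and elements that lie outside these windows were not read.

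The carnitine system brings the fatty acid in, and 4 of its 5 genes fell (median log2 difference -1.63). Slc22a5 (NM_011396), the carnitine transporter of the cell membrane, had log2 signals of 0.14, -0.03 and 0.09 in control hearts 1 to 3 and -1.70, -0.91 and -1.05 in KO-labelled hearts 1 to 3, in the order used throughout. It was 2.44-fold lower (log2 difference -1.29 ± 0.22 SE, adjusted p = 0.00678), with KO replicate 1 the lowest. Cpt1b (NM_009948), the form of CPT1 that prevails in heart and skeletal muscle, gave 6.60, 6.03 and 6.45 against 3.95, 5.12 and 5.12. The groups were well apart although KO replicate 1 lay far below the other 2 KO-labelled hearts. Its fall was 3.09-fold (log2 difference -1.63 ± 0.35 SE, adjusted p = 0.0132), and without control replicate 1 it just missed the threshold (adjusted p = 0.0518). Cpt2 (NM_009949), which rebuilds the acyl-CoA inside, gave 6.24, 5.72 and 5.77 against 3.73, 4.48 and 4.49. Crat (NM_007760), which moves acetyl groups and other short acyl groups to carnitine, gave 2.07, 2.04 and 1.79 against -0.07, 0.36 and 0.34. Both lay lower in every KO-labelled heart. Cpt2 was 3.20-fold lower (adjusted p = 0.00508), and Crat was 3.39-fold lower (adjusted p = 0.00209).

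Cpt1a (NM_013495) was the exception of this group. Its brighter probe gave 2.07, 2.24 and 1.86 in control hearts and 1.67, 2.27 and 2.47 in KO-labelled hearts, so the groups overlapped. The log2 difference was 0.08 ± 0.23 SE (adjusted p = 0.808), with a 95% interval of -0.47 to 0.63, which leaves room for a rise or a fall of moderate size. Its other probe did not overlap between groups, with -0.10, -0.07 and -0.30 against -1.71, -0.86 and -0.79. That probe lay lower by 0.96 on the log2 scale, with an adjusted p of 0.0272 when every probe above background was tested on its own. The probes of Cpt1a therefore disagree, and the direction of this gene depends on the probe read. The other probe of Cpt1b lay lower too (log2 difference -1.27), so the probes of Cpt1b go the same way.

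Within each array, the log2 ratio of Cpt1b to Cpt1a signal was 4.53, 3.79 and 4.59 in control hearts and 2.28, 2.85 and 2.66 in KO-labelled hearts. Only its change can be read, because the level depends on the probes. Every KO-labelled heart lay below every control heart, with a mean change of -1.71 on the log2 scale (3.26-fold lower). The exact permutation test over hearts, two-sided, gave p = 0.1, the smallest value that 3 hearts against 3 allow, so it could not pass 0.05. The ratio was also lower with the dimmer probe of Cpt1b (change -1.34) and with the dimmer probe of Cpt1a (change -0.67), each with the same exact p of 0.1. The choice of Cpt1a probe thus moved this change from -1.71 to -0.67 and left its direction. With the dimmer Cpt1a probe the log2 ratio was 6.70, 6.10 and 6.75 in control hearts and 5.66, 5.98 and 5.91 in KO-labelled hearts, so the groups were only just apart.

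**Figure D2:**
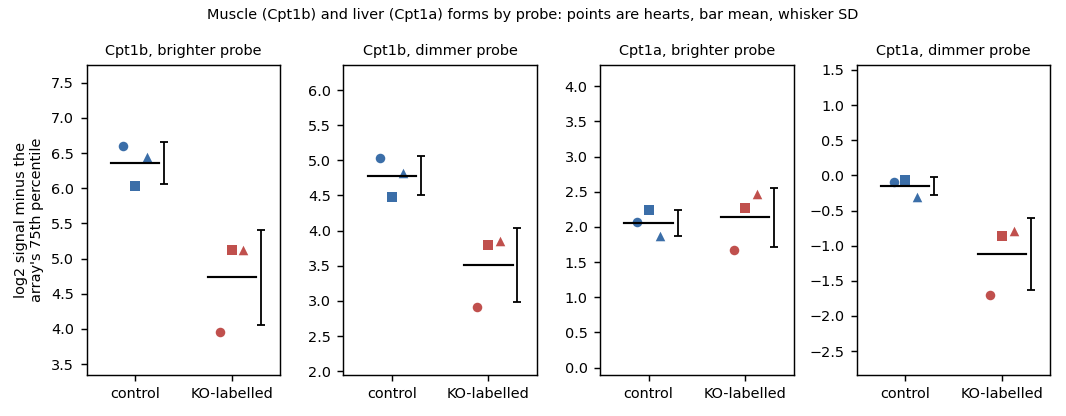
Log2 signal minus the array's 75th percentile (y axis, a separate range with equal length in each panel) of both probes of Cpt1b and both probes of Cpt1a in control and KO-labelled hearts, with a point per heart, a bar at the mean and a whisker of 1 SD (n = 3). The groups are apart for both Cpt1b probes and the dimmer Cpt1a probe, and overlap for the brighter Cpt1a probe, where the difference is 0.08.

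Both genes of malonyl-CoA control at the mitochondrion fell. Acacb (NM_133904) encodes the acetyl-CoA carboxylase that sits on the mitochondrial surface and makes the malonyl-CoA that blocks CPT1, and Mlycd (NM_019966) encodes malonyl-CoA decarboxylase, which removes it. Acacb gave 6.27, 5.60 and 6.06 in control hearts and 3.56, 5.13 and 4.83 in KO-labelled hearts. The groups did not overlap, but KO replicate 1 stood far below the other 2. The fall of Acacb was 2.76-fold (log2 difference -1.47 ± 0.42 SE, adjusted p = 0.0326), and its other probe lay lower by 1.37 on the log2 scale. This call did not hold with the scaling on cardiomyocyte markers (log2 difference -0.79, adjusted p = 0.0677), nor without control replicate 1 (adjusted p = 0.105), without control replicate 3 (adjusted p = 0.0939) or without KO replicate 3 (adjusted p = 0.0547). In all it was lost in 9 of 22 alternatives, among them quantile and cyclic loess scaling and no filter on dim probes. Mlycd gave 6.26, 5.71 and 5.92 against 3.66, 4.51 and 4.43, a 3.39-fold fall (adjusted p = 0.00491) that held without any single heart. Within each array the log2 ratio of Acacb to Mlycd was 0.01, -0.11 and 0.14 in control hearts and -0.10, 0.62 and 0.40 in KO-labelled hearts, and the groups overlapped. The change of 0.30 had an exact two-sided permutation p of 0.3. With the other Acacb probe the ratio was -4.54, -4.39 and -4.37 in control hearts and -4.14, -3.94 and -4.05 in KO-labelled hearts, so every KO-labelled heart lay above every control heart. That change was 0.39 with an exact permutation p of 0.1, the smallest that 3 hearts against 3 allow. No ratio can pass 0.05 at this size, so these p-values do not show that the ratio was unchanged, and whether the groups overlapped depends on the Acacb probe.

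All 9 acyl-CoA dehydrogenase genes fell, with a median log2 difference of -1.25 and a range of -2.09 to -0.45. Those for straight chains are named by the chain length they prefer. Acadvl (NM_017366), for very long chains and bound to the inner membrane, gave 9.31, 8.88 and 9.19 in control hearts and 6.74, 7.73 and 7.55 in KO-labelled hearts. Acadl (NM_007381), for long chains, gave 5.51, 5.22 and 5.35 against 3.59, 4.18 and 4.56. Acadm (NM_007382), for medium chains, gave 8.18, 8.00 and 7.91 against 5.43, 6.24 and 6.13. In each of these the groups were clearly apart and KO replicate 1 was the lowest heart. Acads (NM_007383), for short chains, gave 4.07, 3.76 and 3.72 against 2.10, 2.57 and 2.33. The falls were 3.46-fold for Acadvl, 2.38-fold for Acadl, 4.26-fold for Acadm and 2.86-fold for Acads, so their size did not follow the order of chain length. Among the 9 genes Acadm fell the most (log2 difference -2.09 ± 0.23 SE, adjusted p = 0.00259), and the adjusted p of Acadl was 0.0109.

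The other dehydrogenases of the family fell by less or by about as much. Acad9 (NM_172678), which serves mainly in the assembly of respiratory complex I, gave 3.37, 3.16 and 3.35 in control hearts and 2.36, 2.53 and 2.56 in KO-labelled hearts (1.76-fold lower, adjusted p = 0.00509), and it lost the call with the arrays set level on the cardiomyocyte markers (log2 difference -0.14, adjusted p = 0.467). Acad11 (NM_175324), which takes long acyl chains, gave 5.94, 5.57 and 5.79 against 4.08, 4.76 and 4.53 (2.48-fold lower, adjusted p = 0.00521). Acad10 (NM_028037), a less studied member, gave 3.05, 2.76 and 2.90 against 2.42, 2.51 and 2.43. Its fall was the smallest of the 30 (1.36-fold, log2 difference -0.45 ± 0.12 SE, adjusted p = 0.0294). The call for Acad10 held without control replicate 2 and was lost when any other heart was left out (adjusted p from 0.0508 without KO replicate 2 to 0.11 without control replicate 1). It was also lost with E1A spike-in scaling and without a filter on dim probes. With the arrays set level on cardiomyocyte markers its sign turned (log2 difference 0.23). Acadsb (NM_025826) and Acad8 (NM_025862) work on acyl-CoAs from isoleucine and valine rather than on fatty acids. Acadsb gave 2.50, 2.65 and 2.35 against 1.50, 1.52 and 1.53, with the KO-labelled hearts nearly level (1.98-fold lower, adjusted p = 0.0033). It did not pass with the scaling on cardiomyocyte markers (log2 difference -0.31, adjusted p = 0.28). Acad8 gave -1.07, -1.57 and -1.26 against -2.90, -2.27 and -2.34 (2.30-fold lower, adjusted p = 0.00812).

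The enzymes of the later steps fell in all 6 cases, with a median log2 difference of -1.83. The trifunctional protein, which carries out the hydratase, dehydrogenase and thiolase steps for long chains at the inner membrane, is built from the subunits of Hadha (NM_178878) and Hadhb (NM_145558), whose shared promoter stretch is printed above. Hadha gave 5.76, 5.41 and 5.55 in control hearts and 3.26, 3.97 and 4.08 in KO-labelled hearts. Hadhb gave 8.81, 8.37 and 8.72 against 6.21, 7.16 and 6.93. The subunits fell by similar amounts, 3.49-fold for Hadha (log2 difference -1.80 ± 0.24 SE, adjusted p = 0.00378) and 3.65-fold for Hadhb (-1.87 ± 0.27 SE, adjusted p = 0.00445). For shorter chains these steps are carried out by separate enzymes. The hydratase Echs1 (NM_053119) gave 6.86, 6.45 and 6.89 against 4.87, 5.58 and 5.38. The dehydrogenase Hadh (NM_008212) gave 6.37, 5.79 and 6.09 against 3.10, 4.42 and 4.07. Both sets were apart, and Hadh showed the wider spread among KO-labelled hearts. The thiolase Acaa2 (NM_177470) gave 9.30, 8.94 and 9.07 against 6.24, 7.32 and 7.34. Hsd17b10 (NM_016763), a dehydrogenase of branched short chains that is also a subunit of mitochondrial RNase P, gave 7.27, 6.82 and 7.30 against 5.65, 5.88 and 5.87. The falls were 2.74-fold for Echs1, 4.67-fold for Hadh, 4.41-fold for Acaa2 and 2.51-fold for Hsd17b10, with adjusted p from 0.00346 to 0.00543.

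Unsaturated fatty acids need further enzymes that move or reduce double bonds, and these 4 genes had the lowest median of the roles, -2.01. Ech1 (NM_016772), which shifts conjugated double bonds into place, fell the most of all 32 genes. It gave 8.31, 7.95 and 7.84 in control hearts and 4.90, 5.67 and 5.62 in KO-labelled hearts, so it was 6.22-fold lower with Cre (log2 difference -2.64 ± 0.24 SE, adjusted p = 0.00206). Every KO-labelled heart lay more than 2 log2 units below every control heart. Eci1 (NM_010023), the isomerase for cis and trans double bonds, gave 7.61, 7.13 and 7.27 against 4.21, 5.51 and 5.39, a 4.91-fold fall (adjusted p = 0.00526). Eci2 (NM_011868), an isomerase found in mitochondria and peroxisomes, gave 6.72, 6.39 and 6.49 against 4.86, 5.45 and 5.34. Its fall was smaller, 2.50-fold (adjusted p = 0.0045). Decr1 (NM_026172), the dienoyl-CoA reductase, gave 8.57, 8.04 and 8.26 against 6.14, 6.84 and 6.73, a 3.29-fold fall (adjusted p = 0.00394), and its other probe lay lower by 1.98 on the log2 scale.

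Electrons from all acyl-CoA dehydrogenases pass to electron transfer flavoprotein and on to ubiquinone, and the 3 genes of this route fell by much the same amount (median log2 difference -1.75). Etfa (NM_145615) and Etfb (NM_026695) encode the subunits of the flavoprotein. Etfa gave 7.76, 7.52 and 7.68 in control hearts and 5.53, 6.15 and 6.05 in KO-labelled hearts. Etfb gave 9.62, 9.23 and 9.60 against 7.40, 8.08 and 8.07. Etfdh (NM_025794), the inner membrane enzyme that passes the electrons to ubiquinone, gave 7.04, 6.66 and 6.79 against 4.60, 5.22 and 5.22. None of the 3 overlapped between groups. The log2 differences were -1.75 ± 0.19 SE for Etfa, -1.64 ± 0.22 SE for Etfb and -1.81 ± 0.21 SE for Etfdh, with adjusted p of 0.00254, 0.00408 and 0.00292.

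The proteins with an enoyl-CoA hydratase domain that are named Echdc are less well known. Echdc2 (NM_026728) gave 4.89, 4.80 and 4.73 in control hearts and 3.47, 3.98 and 3.93 in KO-labelled hearts (2.02-fold lower, adjusted p = 0.00613). Echdc3 (NM_024208) gave 4.04, 3.56 and 4.0 against 1.74, 2.79 and 2.57 (2.83-fold lower, adjusted p = 0.0101). Both were lower in every KO-labelled heart. With the scaling on cardiomyocyte markers Echdc2 did not pass (log2 difference -0.34, adjusted p = 0.143). Echdc1 (NM_025855) gave -2.68, -2.95 and -2.95 against -3.31, -3.23 and -2.79, and the groups overlapped. Its log2 difference of -0.25 ± 0.17 SE did not pass (adjusted p = 0.285), and the 95% interval ran from -0.67 to 0.17. Echdc1 had the dimmest probe of the 32 genes.

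**Figure D3:**
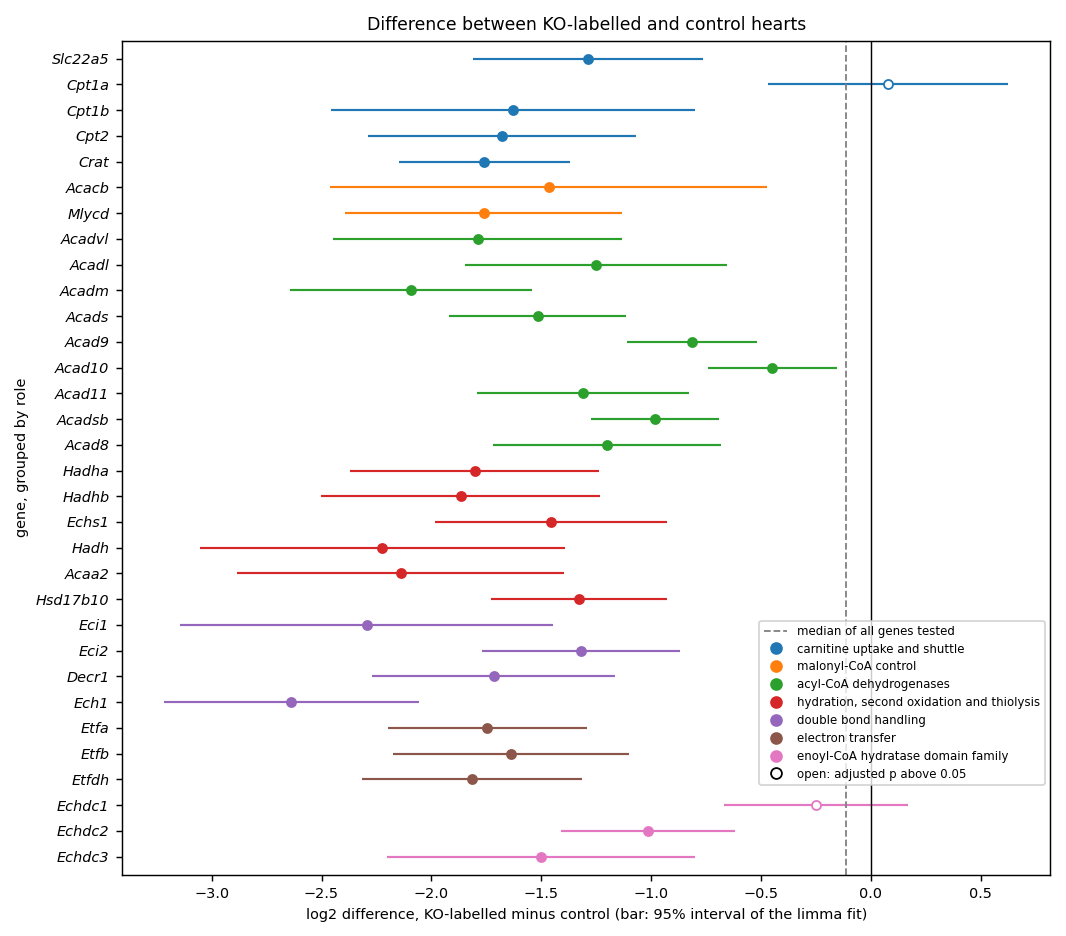
Log2 difference between KO-labelled and control hearts (x axis) for the 32 genes (y axis), coloured by role, with the 95% interval of the limma fit as a bar and open points for the 2 genes that did not pass. The 30 filled points lie left of the dashed line at the median of all genes (-0.11), from -0.45 for Acad10 to -2.64 for Ech1.

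The arrays carried 39 probes for the 32 genes, 1 probe for 25 genes and 2 probes for 7. All 7 dimmer probes lay lower in KO-labelled hearts and passed when the 26070 probes above background were tested one by one. For Acacb, Cpt1b, Cpt2, Decr1, Echdc2 and Etfa the brighter probe passed as well, and for Cpt1a it did not. The dimmer probes of Cpt2 and Etfa gave log2 differences of -2.32 and -2.14.

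The hearts of 1 group were not alike. That KO replicate 1 was the lowest of its group held for 32 of the 32 genes, against 40.4% of everything tested and 66.2% of what was called lower. Its signal lay below the mean of the other 2 KO-labelled hearts by a median of -0.69 on the log2 scale over the 32 genes, beside -0.01 over all genes and -0.21 over the genes called lower. The same heart had the lowest summed cardiomyocyte signal (6467), and the highest summed fibroblast and macrophage signals (1178 and 236); the part of these in its low values was not tested. Among the controls, replicate 1 was the highest for 28 genes and replicate 2 the lowest for 25, and control replicate 2 had the lowest cardiomyocyte sum of its group (9595) and the highest fibroblast sum (762). Relative to the control mean of each gene, the median over the 32 genes was 0.18, -0.17 and -0.02 in the control hearts and -2.11, -1.26 and -1.39 in the hearts with Cre. The median range over hearts was 0.38 among controls and 0.73 among KO-labelled hearts, and the median gap between the groups for the 30 genes that fell was 1.15.

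**Figure D4:**
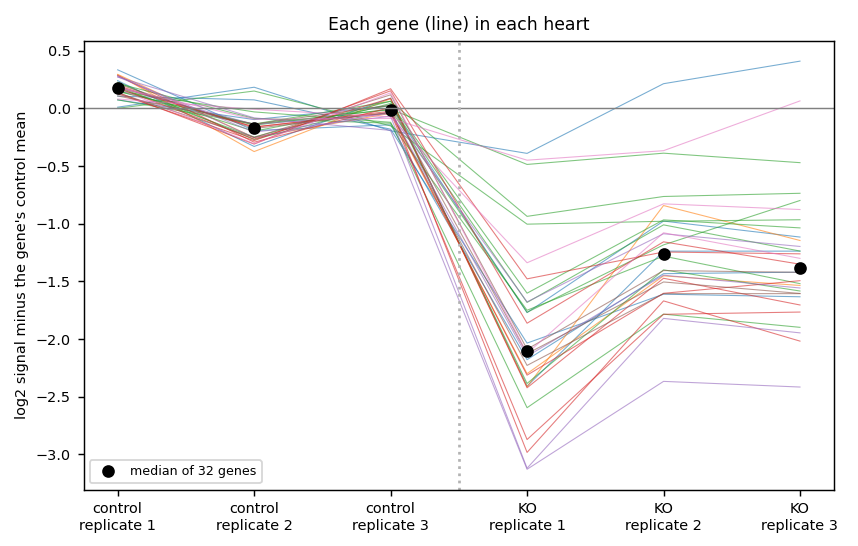
Log2 signal minus the control mean of the same gene (y axis) in each of the 6 hearts (x axis), with 1 thin line per gene, coloured by role, and black points at the median of the 32 genes. Lines only join values of a gene, since hearts have no order, and the medians are 0.18, -0.17 and -0.02 in control and -2.11, -1.26 and -1.39 in KO-labelled hearts.

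Genes around the pathway were read from lists of related functions. Of 5 tested genes for carnitine synthesis and the acylcarnitine carriers 3 fell (median log2 difference -0.94). Slc25a20, the carrier that takes acylcarnitines through the inner membrane, was 3.33-fold lower (log2 difference -1.74 ± 0.17 SE, adjusted p = 0.00225). Slc25a29, a carrier of basic amino acids first described as a carnitine carrier, was 3.41-fold lower, and Tmlhe, the first enzyme of carnitine synthesis, was 1.91-fold lower. Tmlhe lost the call with the arrays set level on the cardiomyocyte markers (log2 difference -0.26, adjusted p = 0.305), where the carriers Slc25a20 and Slc25a29 still fell and Slc22a4 rose. The other 2 did not pass and were named after their values were seen, Aldh9a1 (log2 difference -0.51) and Slc22a4 (0.72).

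Upstream of the mitochondrion, 5 of 10 genes for fatty acid uptake, binding and activation fell and 1 rose (median log2 difference -0.56). The surface transporters Cd36 and Slc27a1 were 2.03-fold and 3.01-fold lower, and with the scaling on cardiomyocyte markers Cd36 did not pass (log2 difference -0.35, adjusted p = 0.0696). Acsl1, the main acyl-CoA synthetase of the heart, gave 7.54, 7.12 and 7.36 in control hearts and 4.58, 6.04 and 5.81 in KO-labelled hearts, a 3.64-fold fall (adjusted p = 0.0115). Acsl5, another synthetase, rose by 0.73 on the log2 scale (± 0.18 SE, adjusted p = 0.0207). The rise of Acsl5 held only without control replicate 2 and without KO replicate 3, and the adjusted p with any other heart left out lay between 0.05 and 0.0781. Fabp3, the fatty acid binding protein of heart muscle, was 1.74-fold lower (adjusted p = 0.027). That call was lost without control replicate 1 (adjusted p = 0.0927), control replicate 3 (0.085), KO replicate 1 (0.0578) or KO replicate 3 (0.0508). In all it was lost in 10 of 22 alternatives, among them quantile and cyclic loess scaling and no filter on dim probes. The fifth that fell was Acsl6, with -0.17, -0.93 and -1.05 in control hearts and -4.62, -2.72 and -2.22 in KO-labelled hearts, of which only 2 were well above background. Its log2 difference was -2.47 with all hearts and -1.75 without KO replicate 1, and the call was lost without control replicate 1 (adjusted p = 0.0761) or control replicate 3 (0.0541). Set level on the cardiomyocyte markers, 3 of the 10 genes fell and 4 rose, and 3 fell and 0 rose without control replicate 1 or control replicate 3. Acsl6 and those that did not pass, Slc27a4 (-0.07), Fabp4 (-0.32), Acsl4 (0.50) and Dbi (-0.10), were named after their values were seen.

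Peroxisomes also oxidise fatty acids, mainly very long and branched ones. Of 14 tested genes of that route 11 fell and 0 rose, with a median log2 difference of -0.69 and a range of -1.10 to 0.28. The reductase Pecr, the membrane transporter Abcd3, the thiolase Acaa1b and the racemase Amacr fell 1.93-fold, 1.96-fold, 2.05-fold and 1.92-fold. Acaa1b has a close paralogue, Acaa1a, and whether the probe separates them was not tested. The 3 genes that did not pass, named after their values were seen, were Acox2 (log2 difference 0.24), Acox3 (-0.15) and Decr2 (0.28). The count of falls was 4 without control replicate 1, 5 without control replicate 3 and 6 without KO replicate 3. Set level on the cardiomyocyte markers, 0 of the 14 fell and 3 rose, and the 4 named genes did not pass (adjusted p from 0.0817 to 0.179).

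Of 18 genes for the PPAR, ERR and PGC-1 regulators 8 fell and 0 rose, with a median log2 difference of -0.54. Ppargc1a, which encodes PGC-1 alpha, gave 4.46, 3.97 and 4.32 in control hearts and 1.90, 2.70 and 2.62 in KO-labelled hearts (3.59-fold lower, adjusted p = 0.00399). Esrrb, an estrogen-related receptor, was 2.45-fold lower, the retinoid receptor Rxrg 3.01-fold lower and the corepressor Ncor1 1.61-fold lower. Ncor1 did not pass with E1A spike-in scaling (adjusted p = 0.0632) or with the arrays set level on the cardiomyocyte markers (log2 difference -0.010, adjusted p = 0.968). The receptor genes Ppara (log2 difference -1.57, adjusted p = 0.0132), Esrra (-0.79, adjusted p = 0.0199) and Esrrg (-0.92, adjusted p = 0.0121) also fell, as did Lpin1 (-1.31, adjusted p = 0.0125), a coactivator of PGC-1 alpha and PPAR alpha; these 4 were named after their values were seen. The call for Ppara was lost without control replicate 1 (adjusted p = 0.0517) or control replicate 3 (0.0509), and that for Esrra without control replicate 1 (0.0744), control replicate 3 (0.0739) or KO replicate 1 (0.054). Set level on the cardiomyocyte markers, 5 of the 18 regulators fell, among them Ppara and Ppargc1a, 2 rose, and Esrra (adjusted p = 0.493) and Esrrg (0.231) did not pass.

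Of 11 further known targets of PPAR alpha in muscle 4 fell, 0 rose and 7 did not pass (median log2 difference -0.80). Acot1 and Acot2, acyl-CoA thioesterases of cytosol and mitochondrion with near-identical sequences whose probes may not separate them, fell 5.83-fold and 4.77-fold. Plin5, which coats lipid droplets beside mitochondria, gave 7.03, 6.54 and 6.90 in control hearts and 3.08, 5.20 and 4.97 in KO-labelled hearts. Its fall was 5.29-fold (adjusted p = 0.016), its log2 difference was -1.74 without KO replicate 1 beside -2.40 with all hearts, and the call was lost without control replicate 1 (adjusted p = 0.0581) or control replicate 3 (0.0545). The fourth was Fabp3, which is on both lists. Angptl4, Plin2 and Ucp2, which did not pass, lay higher by 0.61, 0.31 and 0.17 and were named after their values were seen. These 3 were called higher with the scaling on cardiomyocyte markers, where Acot1, Acot2 and Plin5 still fell and Fabp3 did not pass (adjusted p = 0.48). The count of falls was 2 without control replicate 1 or control replicate 3.

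Of 10 genes for the assembly of acyl-CoA dehydrogenases with complex I, for their flavin cofactor and for their deacylation 7 fell (median log2 difference -0.94). The complex I assembly factor Ecsit was 2.26-fold lower, Etfbkmt, which methylates the flavoprotein subunit ETFB, 2.31-fold lower, the deacylase Sirt5 2.03-fold lower and the FAD synthase Flad1 1.91-fold lower. Set level on the cardiomyocyte markers, Ecsit alone of the 10 fell and 2 rose, while Etfbkmt (adjusted p = 0.0523), Sirt5 (0.086) and Flad1 (0.179) did not pass. Rfk, Slc25a32 and Slc52a2 did not pass (log2 differences -0.37, -0.15 and 0.31) and were named after their values were seen.

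Of 11 genes for malonyl-CoA and its control by AMP-activated kinase, which leave out Acacb and count Mlycd again, 5 fell, 1 rose and 5 did not pass (median log2 difference -0.40). Prkab1 and Prkag1, regulatory subunits of that kinase, were 2.68-fold and 1.54-fold lower, while Prkab2, its other beta subunit, rose by 0.56 on the log2 scale (adjusted p = 0.0317) and was named after its value was seen. The rise of Prkab2 held without control replicate 1 and without KO replicate 2, and was lost without any other heart (adjusted p from 0.0663 to 0.11). The call for Prkag1 was lost without control replicate 1 (adjusted p = 0.058) or control replicate 3 (0.0568). Mcat, which loads malonyl groups for fatty acid synthesis in mitochondria, was 1.97-fold lower. Acaca, the cytosolic carboxylase, and Fasn, the fatty acid synthase, did not pass and were named after their values were seen. Acaca gave 1.99, 2.17 and 2.59 in control hearts and 2.70, 4.68 and 2.41 in KO-labelled hearts, and Fasn gave -2.55, -2.08 and -1.56 against -1.69, 1.79 and -1.89. Both were high in KO replicate 2 alone, the heart with the high summed white fat signal (257), whose part in these values was not tested. Their log2 differences were 1.01 and 1.46 with all hearts (adjusted p = 0.203 and 0.257) and 0.30 and 0.27 without KO replicate 2. Set level on the cardiomyocyte markers, Mcat (adjusted p = 0.124) and Prkag1 (0.787) did not pass, and 2 of the 11 genes fell and 4 rose, among them Acaca (adjusted p = 0.0397).

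The acetyl-CoA from beta-oxidation enters the citric acid cycle, and all 18 genes listed for the cycle fell. All 18 also fell without any single heart, and 14 did with the scaling on cardiomyocyte markers. Of everything tested 10.4% to 27.0% were called lower with 1 heart left out, and 5.0% with that scaling. The median log2 difference of the 18 genes was -1.28, with a narrower range (-1.79 to -1.0) than that of the 32 fatty acid oxidation genes (-2.64 to 0.08). The most certain falls were those of Idh3b (3.46-fold), Sucla2 (2.73-fold), Dld (2.62-fold) and Suclg1 (2.54-fold). The counts and medians of these lists stand beside 23% of all genes called lower and a median of -0.11, and the lists were not tested against each other.

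**Figure D5:**
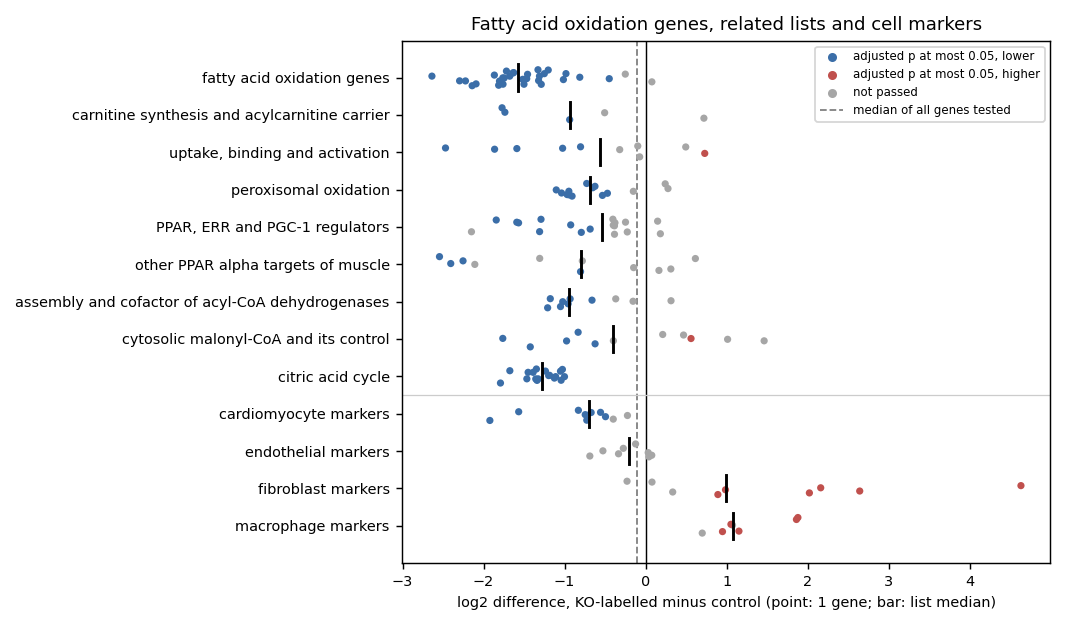
Log2 difference between KO-labelled and control hearts (x axis) for each gene of the fatty acid oxidation list, of 8 related lists and of 4 cell marker lists (y axis), with blue points for genes that fell, red for genes that rose, grey for genes that did not pass, and a black bar at each list's median. The medians are -1.57 for fatty acid oxidation, -1.28 for the citric acid cycle and -0.70 for cardiomyocyte markers, beside -0.11 for all genes (dashed line).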

How the data were processed

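The scanner files as deposited hold linear intensity values for each spot. Per the file headers, Agilent Feature Extraction 11.0.1.1 subtracted the background. The other deposited file holds log2 values; the submitters' processing notes list Feature Extraction with R 3.1.3 and do not say how the values were scaled. Once a constant was allowed for each array, 94.9% of its differences equalled the scanner's within 0.001. Rows centred on a median of 0 made up 94.2%, and its column medians were 0.09, -0.02 and 0.07 (control) and -0.04, -0.05 and -0.02 (KO-labelled). It served as an alternative only. The labels describe RNA columns for hearts and also a kit for blood RNA with globin removal, which was not resolved.

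Processed signals were taken as log2 values, without outlier spots, with repeated spots averaged, and minus each array's 75th percentile. Of 55681 probes, 73 were left out, and RefSeq accessions named 26551. Probes well above background on all 3 arrays of a group were kept, with the brightest probe for each gene. Groups were compared with limma 3.58.1 in R 4.3.3 (data.table, version 1.17.8), two-sided, with Benjamini-Hochberg adjustment at 0.05, checked on simulated data. The number of hearts, 3 per group, limits the precision.

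The 32 genes and all lists were chosen with earlier results of these data known. Every one of the 32 was named, with up to 4 passing genes of smallest p from each related list; genes outside that rule are marked in the text. The alternatives were normexp background, which used median signals, other scalings, the deposited log2 values, filters, probe rules, variance models, array weights, a replicate block, leaving out hearts and other thresholds. Promoter windows came from RefSeq GRCm38.p6, while the array design was built on mm9, so no probe positions were used.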

Additional observations from a re-analysis of the deposited data

How the results depend on the processing

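Over 22 alternatives, 22 of the 32 genes were called lower in every one, and 29 kept a fall in every one. Of 704 pairs of gene and alternative, 671 kept direction and side of the threshold, 25 lost the call, 2 gained one and 6 reversed. The alternatives are not equally strict, since a looser adjusted p of 0.1 cannot lose a call. All pairs come from the same 6 hearts and are not independent. The reversals were Cpt1a with the mean of its probes (-0.44), without control replicate 3 (-0.019) and without KO replicate 3 (-0.088; -0.088 to 0.31 with 1 heart left out), Echdc1 with array weights (0.024) and with the arrays set level on cardiomyocyte markers (0.42), and Acad10 with the latter (0.23). Among the related genes Prkag1 reversed with that scaling (0.051). Cpt1a was called higher with array weights (log2 difference 0.47, adjusted p = 0.0187), so 1 of the 32 genes was higher there, and likewise with the cardiomyocyte scaling (0.75, adjusted p = 0.039; 1 gene). The number of all genes called was 7817, and it was 4345 without a filter on dim probes, 13713 with array weights, 4862 with the replicate block, 3106 at an adjusted p of 0.01 and 3987 to 8672 with 1 heart left out. The 32 genes gave 28, 30, 28 and 25 calls lower in the first 4 of these, and 27 to 30 with 1 heart left out. Of everything tested 6.54%, 41.9%, 13.7% and 8.23% were called lower in the same 4, and 10.4% to 27.0% with 1 heart left out. Without the filter 37174 genes and features were tested. The array weights were 1.26, 0.26 and 2.50 for the control hearts and 0.32, 0.49 and 7.69 for the KO-labelled hearts, so KO replicate 3 counted most. Same-numbered hearts deviated with correlations of -0.15, -0.12 and -0.08, and hearts of different numbers with -0.17 to 0.26. With 3 hearts per group these values cannot show whether the hearts were paired. The replicate block lost Acacb and Acad10 among the 32 genes (adjusted p = 0.0808 and 0.0823). Of all calls 41.1% were upward as scaled here, 55.3% with cyclic loess, 58.6% with E1A spike-in scaling on 7 probes and 90.4% on cardiomyocyte markers. The last 3 scalings moved the median of all genes by 0.14, 0.22 and 0.67. With them the 32 genes gave 29, 29 and 25 calls lower, beside 18.1%, 13.1% and 5.0% of everything tested. The change of the Cpt1b to Cpt1a ratio was -1.01 with the mean of a gene's probes, -0.67 with the dimmer Cpt1a probe and -1.96 to -1.55 with 1 heart left out. The cardiomyocyte scaling, the settings of the related lists and the other probes of the ratios were chosen after seeing the data. All 32 genes were well above background on 6 arrays. Acad8 and Echdc1 still lay in the dimmest bin, and the part of low signal in their differences was not tested.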
